A study of Rattus norvegicus with 9 samples.

Results

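Palmitic acid (PA), the most common saturated fatty acid in blood, was set against its carrier in INS-1E cells, a rat insulinoma line that secretes insulin. The comparison covered the 12958 genes, of 20645 in the deposited table, with a mean of at least 1 FPKM over the 9 libraries of the series. FPKM counts the fragments of a gene per kilobase of its transcript and relative to how many fragments its library mapped, which lets levels be compared between genes. The PA group (3 libraries) received 0.5 mM PA for 24 h, and the BSA group (3 libraries) received fatty acid-free BSA, the protein that carries fatty acids in serum, for 24 h. A further 3 libraries, from cells given PA together with cyanidin-3-O-glucoside (PA + C3G), entered the fit only to help estimate the spread between libraries. All cells were of the same unmodified line, and the dose came from the methods of the study. Those methods speak of replicate samples in each group and of biological replicates for the experiments in general. They do not say whether the libraries came from separate cultures. The p-values therefore set the difference between groups against the spread between these libraries, which may not be that between separate cultures. The description below covers genes and pathways other than ER stress, the insulin genes and DNA replication.

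Fatty acids that enter a beta cell are activated to acyl-CoA. They are then burned in mitochondria, stored as triglyceride in lipid droplets, desaturated, or built into membranes. The carnitine palmitoyltransferase CPT1 controls entry into mitochondria, and the SREBP factors switch on fatty acid and cholesterol synthesis. Beta cells couple glucose to insulin release by taking it up through GLUT2 (Slc2a2) and oxidizing it. The ATP that results closes K-ATP channels, calcium enters, and dense-core granules fuse with the membrane. Long exposure to saturated fatty acid is known to impair this coupling.

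The estimated counts, which are not normalized, summed to between 52855152 and 65960969 per library in these 6 libraries. Across genes, which are not replicates, the log2 scaled counts of libraries of the same group correlated at a Pearson r of 0.963 to 0.972, and those of a BSA and a PA library at 0.935 to 0.941. The beta cell marker Slc30a8 (granule zinc transporter) was present in every library, at 883, 886 and 901 with BSA and 668, 755 and 729 with PA. Of 15 markers of other islet, exocrine, stromal, endothelial and immune cells in the table, 12 stayed under a mean of 1 FPKM in both groups. Ptprc, which marks immune cells, and Hhex, which marks delta cells, were listed at 0 in all 6 libraries. The summed level of the 15 markers ran from 12.9 to 35.2 FPKM with BSA and from 9.64 to 12.4 with PA. With BSA most of it was Gcg, the glucagon gene, which was at 31.2, 8.28 and 22.1 with BSA and 6.02, 1.35 and 3.35 with PA. Replicate 2 was the lowest of each group, the groups did not overlap, and the difference did not pass (adjusted p = 0.0556, edgeR's quasi-likelihood test). It did pass with the replicate number as a block (adjusted p = 6.53e-10), with DESeq2 (0.00472), with limma (0.0484 and 0.0488) and without BSA replicate 2 (0.0453). The part of these markers in the results below was not tested.

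At an adjusted p-value under 0.05, from edgeR's quasi-likelihood test with Benjamini-Hochberg adjustment over all 12958 genes, 6636 genes (51.2%) changed with PA. Of these, 3368 (26%) rose and 3268 (25.2%) fell. Most changes were small, since the median fold among the called genes was 1.35 and 4403 of them (66.4%) lay under 1.5-fold. A fold above 2 with an unadjusted p-value under 0.05, the criterion of the study, was met by 962 genes (7.42%), 423 higher (3.26%) and 539 lower (4.16%). The 3 libraries of each group did not overlap in FPKM for 59.9% of the genes, with all PA libraries above for 28% and all below for 31.8%. These shares are the background against which the gene lists below are to be read. The median log2 fold change of all tested genes was 0.003.

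**Figure D1:**
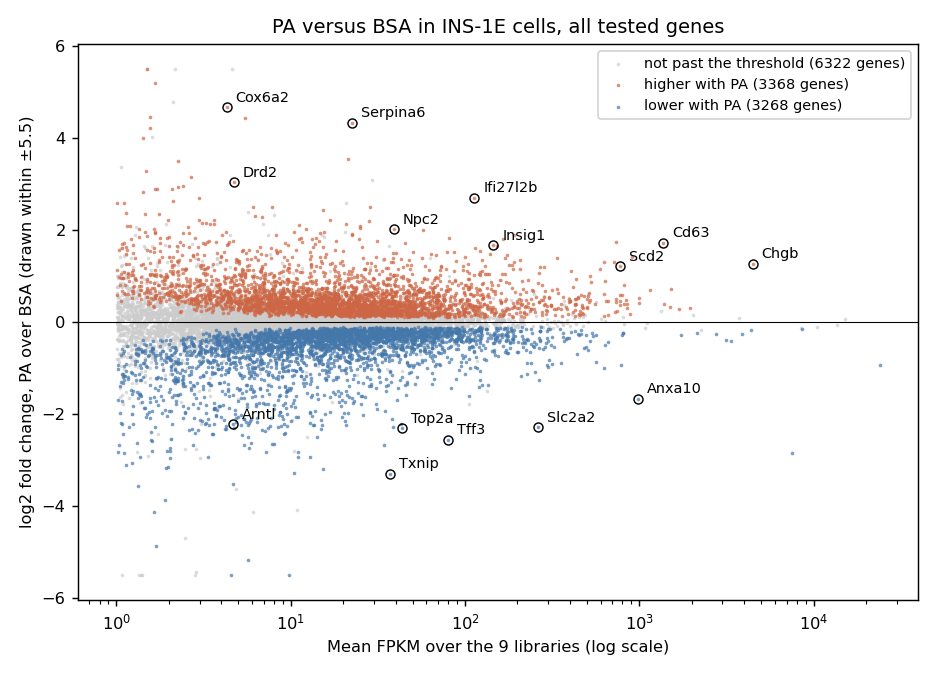
Each point is 1 of the 12958 tested genes, with its mean FPKM over the 9 libraries on a log axis and its log2 fold change of PA over BSA on the vertical axis, drawn within ±5.5. Orange marks the 3368 genes called higher, blue the 3268 called lower and grey the others, circles mark genes named in the text, and the wide changes of Cox6a2, Drd2 and Serpina6 lie at lower levels than those of Anxa10, Chgb and Cd63.

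Among the largest rises without overlap between the groups were genes that were nearly silent with BSA. Cox6a2, a subunit of cytochrome c oxidase known from heart and skeletal muscle, was at 0.298, 0.449 and 0.545 with BSA and 12, 10.4 and 11.4 with PA (log2 fold change 4.68 ± 0.34, adjusted p = 8.58e-08). Here and below, the error of a log2 fold change is a standard error worked back from the F statistic of the edgeR test above. Adjusted p-values come from the same test. Each PA library stood above 10 FPKM, whereas no BSA library reached 1. Serpina6, the corticosteroid-binding globulin, was at 1.53, 3.11 and 2.02 with BSA and 26, 63 and 42.5 with PA (4.33 ± 0.59, adjusted p = 0.00111). Its PA libraries varied over more than 30 FPKM and all lay above the BSA libraries. Cntn3 (contactin 3, a neuronal adhesion molecule) was at 2.87, 3.43 and 3.34 with BSA and 33.8, 40.7 and 36.1 with PA, with replicates of each group close together (3.55 ± 0.18, adjusted p = 2.53e-06). Grik1, a kainate receptor subunit, rose with a log2 fold change of 4.45 ± 0.22, and Mme, the membrane peptidase neprilysin, with one of 4.22 ± 0.59. Both stayed under 4 FPKM in every PA library.

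The largest falls included Esco2, the cohesin acetyltransferase, and Mybl2, a transcription factor of cycling cells. Esco2 was at 10.3, 9.59 and 11.2 with BSA and 1.06, 0.771 and 0.823 with PA, and Mybl2 at 24.7, 22 and 24.6 with BSA and 2.91, 2.19 and 2.08 with PA, so that neither overlapped between groups. Their log2 fold changes were −3.52 ± 0.18 (adjusted p = 2.59e-08) and −3.28 ± 0.12 (adjusted p = 7.36e-10). Cdh6, a cadherin, fell from a mean of 4.23 to 0.233 FPKM (−4.14 ± 0.36). Tmem255b, a membrane protein, was at 4.92, 3.44 and 3.75 with BSA and 0.0777, 0.302 and 0 with PA. A few further genes of this kind were listed at exactly 0 in a whole group, and no fold is given for them. Hdac6, a deacetylase of tubulin, was at 0, 0 and 0 with BSA and 1.51, 1.53 and 3.49 with PA, and its call was lost with the replicate number as a block (adjusted p = 0.0977). LOC103689978, which the table describes as a SUMO-specific peptidase, was at 7.24, 7.05 and 6.98 with BSA and 0, 0 and 0 with PA. Of the 2 entries for Senp1, another SUMO peptidase, the entry on chromosome 7 at 139523690 to 139542461 was at 8.24, 6.96 and 10.5 with BSA and 0, 0.252 and 0.445 with PA. The table also held 40 tested genes at 0 in some of the 6 libraries and at 10 FPKM or more in another, so a listed 0 can be a failed estimate.

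Among abundant genes, with a mean of at least 50 FPKM, Ifi27l2b, an interferon-inducible gene, showed the largest rise. It was at 39, 33.3 and 28.6 with BSA and 215, 182 and 249.5 with PA (2.70 ± 0.15, adjusted p = 1.17e-06), and every PA library lay far above every BSA library. Cd63, a tetraspanin of lysosomes, granules and exosomes, was at 588, 561 and 606 with BSA and 1850, 1854 and 2010 with PA (1.73 ± 0.05, adjusted p = 1.34e-11). The replicates of Cd63 differed by a small part of the difference between groups. Qdpr, which regenerates the cofactor tetrahydrobiopterin, rose 3.52-fold, Ccdc86, a nucleolar protein, 3.72-fold, and Vegfb, a growth factor, 4.01-fold. C2cd4b, a nuclear factor linked to islet function, was at 50.1, 55.1 and 52.6 with BSA and 145, 170.4 and 155 with PA (1.60 ± 0.07), again without overlap.

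Among abundant genes that fell, Tff3 (trefoil factor 3, a secreted peptide) was at 162, 131 and 144 with BSA and 20.8, 28.4 and 23.7 with PA (−2.56 ± 0.12, adjusted p = 1.68e-08). Anxa10, an annexin, was at 1578, 1702 and 1585 with BSA and 483, 526 and 495 with PA (−1.67 ± 0.05, adjusted p = 2.43e-11). Both were lower in all 3 PA libraries by more than any spread within a group. Hmgb2, a chromatin protein of proliferating cells, fell 3.06-fold, Fat1, an atypical cadherin, 2.69-fold, and Ca8, a carbonic anhydrase-related protein, 2.67-fold. H1f10, a linker histone, and Tmsb15b2, a thymosin, fell 2.6-fold and 2.59-fold. Hmgb2 and thymosin genes have near-identical copies in the genome, so fragments may be divided between copies and their levels are uncertain.

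Genes of fatty acid oxidation, listed together with PPAR targets that are not all steps of it, rose more often than they fell. Of 25 tested members of fatty acid oxidation and PPAR targets, 15 rose and 5 fell, and the median log2 fold change was 0.25 against 0.003 for all genes. Cpt1a, the gated step of entry, was at 13.5, 13.2 and 12.6 with BSA and 36.1, 32.2 and 33.2 with PA (1.39 ± 0.06, adjusted p = 6.04e-10). Slc25a20, which exchanges acylcarnitine across the inner membrane, was at 23.9, 24.7 and 24.5 with BSA and 54.7, 54.7 and 55.9 with PA (1.20 ± 0.05, adjusted p = 4.49e-10). No library of either gene overlapped the other group. Acaa2, the thiolase that ends each turn of the spiral, was at 27.4, 27.2 and 27.6 with BSA and 68.4, 71.1 and 73 with PA (1.39 ± 0.04). Acot2, a mitochondrial acyl-CoA thioesterase, and Ppargc1a, the coactivator PGC-1alpha, were low genes that rose 4.44-fold and 4.16-fold.

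Not every step moved that way. Hadh, the short-chain hydroxyacyl-CoA dehydrogenase that is unusually abundant in beta cells and known to restrain insulin release, was at 149, 135 and 142 with BSA and 64.1, 69.3 and 59.3 with PA (−1.12 ± 0.06, adjusted p = 3.11e-09). It fell in all 3 PA libraries, while its neighbour in the spiral, Acaa2, rose. Ucp2, an uncoupling protein of the inner membrane, fell from 342 to 246 FPKM (−0.45 ± 0.04). The summed level of the 25 genes was slightly lower with PA, at 1095 ± 3.67 FPKM with BSA and 1074 ± 12.1 with PA (mean ± SD, n = 3).

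Genes of fatty acid uptake, activation and storage also rose more often than they fell, with 14 of 27 higher, 4 lower and a median log2 fold change of 0.24. Lpin1, a phosphatidate phosphatase on the path to triglyceride, was at 14.6, 15.9 and 15.1 with BSA and 28.3, 29.8 and 28.7 with PA (0.96 ± 0.05, adjusted p = 6.92e-09). Lpin3, its relative, rose 1.45-fold. Acsl4 (acyl-CoA synthetase for polyunsaturated fatty acids) was at 29.1, 25.6 and 28 with BSA and 45.6, 42 and 45.1 with PA (0.71 ± 0.05), whereas Acsl1, a synthetase for saturated chains, fell slightly (−0.21 ± 0.04). Around lipid droplets, the lipase inhibitors G0s2 and Hilpda rose 1.68-fold and 2.67-fold. The droplet coat protein Plin2 was low in this line, at 3.67, 3.22 and 4.27 with BSA and 5.78, 5.8 and 6.32 with PA, and rose 1.63-fold. Fitm2, which helps droplets form, fell 1.24-fold. The enzymes of the last step of triglyceride synthesis, Dgat1 (−0.01 ± 0.08) and Dgat2 (−0.28 ± 0.13), did not pass the test.

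Genes of fatty acid synthesis and desaturation were split, with 7 of 20 higher and 3 lower (median log2 fold change 0.08). Srebf1, the gene of the factor that drives the pathway, was at 43.7, 45.2 and 43.6 with BSA and 123, 118 and 133 with PA (1.52 ± 0.05, adjusted p = 2.98e-11). Scd2, a stearoyl-CoA desaturase that turns saturated into monounsaturated chains, was an abundant gene, at 469, 453 and 471 with BSA and 1037, 1060 and 1090 with PA (1.22 ± 0.04, adjusted p = 4.01e-11). Fasn (fatty acid synthase) was at 48.4, 46.2 and 47.4 with BSA and 96.1, 92.3 and 97 with PA (1.03 ± 0.04, adjusted p = 9.07e-11). None of these overlapped between groups. Acaca, the acetyl-CoA carboxylase that feeds synthase, rose only 1.18-fold, and Acly, which makes cytosolic acetyl-CoA from citrate, fell from 795 to 580.5 FPKM (−0.43 ± 0.04). Among the other desaturases Fads1 rose 1.49-fold and Fads3 fell 1.82-fold.

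**Figure D2:**
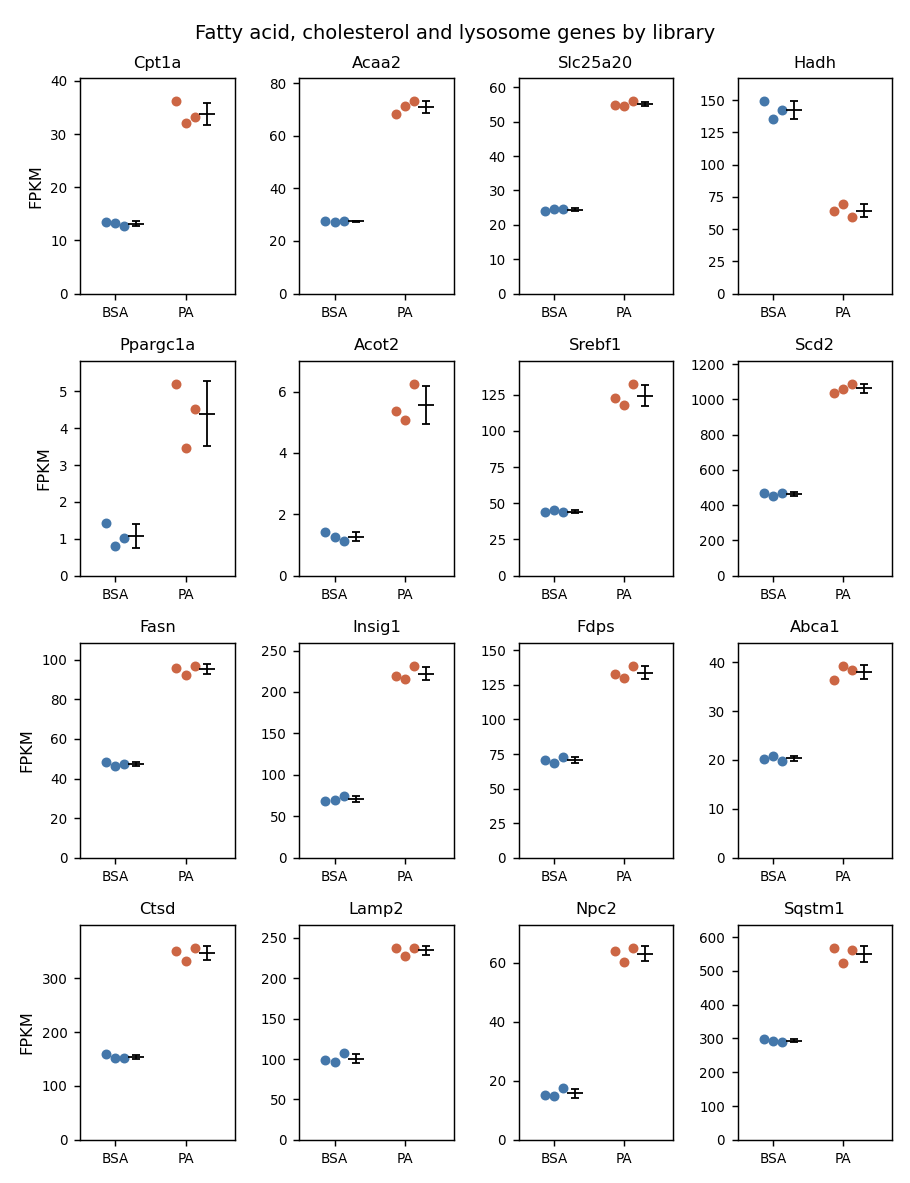
FPKM of 16 genes in the 3 BSA and 3 PA libraries, 1 point per library, with the mean and SD (n = 3) drawn beside the points and each vertical axis starting at 0. The groups are apart for all of these genes, and Hadh is the gene that is lower with PA.

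Of 31 genes of cholesterol synthesis and uptake, 17 rose and 3 fell, with a median log2 fold change of 0.34. Insig1, the membrane protein that retains the SREBP complex and is itself an SREBP target, was at 68.6, 69.7 and 74.4 with BSA and 219, 216 and 232 with PA (1.67 ± 0.04, adjusted p = 1.34e-11). Fdps (farnesyl diphosphate synthase) was at 70.6, 68.8 and 72.6 with BSA and 133, 129.7 and 139 with PA (0.94 ± 0.04, adjusted p = 1.19e-09). Both were higher in every PA library. Hmgcs1 rose 1.46-fold, Tm7sf2, a sterol reductase, 2.02-fold, and Srebf2, the factor that drives the pathway, 1.39-fold. Sqle, squalene epoxidase, had a log2 fold change of 0.03 ± 0.05 and did not pass. Abca1, which exports cholesterol, rose 1.9-fold, and Mylip, a ubiquitin ligase, fell 1.77-fold.

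The sequence before the start of cholesterol genes often held CCAAT, the element bound by NF-Y, a factor that works beside SREBP. In the 250 bases before the RefSeq start (build GRCr8), CCAAT on either strand was found in 17 of 23 cholesterol genes (73.9%) with 1 promoter entry, against 3030 of 8437 tested genes with 1 such entry (35.9%). Shares of 60% or more were also found among the genes of mitosis, of the cytoskeleton, of the heat shock response and of the clock. This is a match of letters, not evidence of binding. The 100 bases below show it in 2 of the genes that rose, 5′ to 3′ on the strand of the gene, with CCAAT or its complement ATTGG in capitals. They lie at chr2:176804847-176804946 on the minus strand for Fdps and at chr2:53382116-53382215 on the plus strand for Hmgcs1.
Fdps: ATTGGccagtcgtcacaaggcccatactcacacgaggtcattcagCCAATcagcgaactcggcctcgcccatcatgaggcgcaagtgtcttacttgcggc
Hmgcs1: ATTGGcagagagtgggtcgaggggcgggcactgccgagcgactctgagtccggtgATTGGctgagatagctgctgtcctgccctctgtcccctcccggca

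Genes of ceramide and sphingolipid synthesis, which use palmitate as a building block, had small changes. Of 23 tested, 7 rose and 2 fell, so that fewer changed than among all genes, and the median log2 fold change was 0.07. Sptlc1, a subunit of serine palmitoyltransferase, the entry enzyme, rose 1.15-fold, and its partner Sptlc2 did not pass (−0.16 ± 0.10). In degradation, Smpd1, the lysosomal sphingomyelinase, was at 28.1, 27.8 and 27.2 with BSA and 42.8, 39.97 and 41.4 with PA (0.60 ± 0.05, adjusted p = 3.07e-07). Asah1, acid ceramidase of the lysosome, rose 1.28-fold, and Smpd3, the neutral sphingomyelinase, fell 1.3-fold.

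Lysosomal hydrolases and membrane proteins rose widely. Among 46 genes of autophagy and lysosome, 26 rose and 4 fell (median log2 fold change 0.27), and their summed level went from 2488 ± 9.25 to 3889 ± 103 FPKM (mean ± SD, n = 3). Ctsd, the protease cathepsin D, was at 159, 152 and 152 with BSA and 351, 332 and 356 with PA (1.19 ± 0.04, adjusted p = 5.63e-11). Lamp2, a main protein of the lysosomal membrane, was at 98.9, 95.7 and 107 with BSA and 237, 228 and 238 with PA (1.24 ± 0.05, adjusted p = 1.78e-10). Npc2, which hands cholesterol out of the lysosome, was at 15, 14.8 and 17.4 with BSA and 63.9, 60.1 and 65 with PA (2.02 ± 0.08, adjusted p = 1.83e-10). All PA libraries of these genes lay above all BSA libraries. Ctsl, another cathepsin, rose 2.31-fold, Lamp1 1.65-fold, Ctsb 1.53-fold and Npc1, the partner of Npc2, 1.68-fold.

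The autophagy genes within this list moved in both directions. Sqstm1, the cargo receptor p62, was at 298, 293 and 291 with BSA and 569, 524 and 561 with PA (0.93 ± 0.04, adjusted p = 7.86e-10), and Map1lc3b, which coats autophagosomes, rose 1.51-fold. The initiation genes Ulk1 and Becn1 fell 1.2-fold and 1.19-fold, and Gabarapl2 1.21-fold. Tfeb, the gene of the factor that controls lysosomal genes, was at 15.7, 17.4 and 16.4 with BSA and 16.8, 16.5 and 14.9 with PA, and its groups overlapped. Its own level did not pass (−0.01 ± 0.07, adjusted p = 0.906). The vacuolar ATPase, the pump that acidifies lysosomes and granules, had 10 of 17 subunit genes higher and 1 lower (median log2 fold change 0.21).

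The motif CACGTGAC, part of the element that TFEB and its relatives bind, was searched in the same 250 bases on both strands. It was found in 5 of 37 autophagy and lysosome genes (13.5%) and in 312 of all 8437 (3.7%). It contains CACGTG, found in 7 of the 37 (18.9%) and in 8.53% of all. Neither was particular to this list, since CACGTGAC was found in 3 of 20 immediate early genes (15%), and CACGTG in 26.7% of the clock genes, 26.3% of the glucose sensing genes and 20% of the immediate early genes. Shown here are 2 genes that rose and hold it close to the start, with the motif in capitals, at chr1:206968822-206968921 for Ctsd and chr16:83075064-83075163 for Lamp1, both on the minus strand of GRCr8.
Ctsd: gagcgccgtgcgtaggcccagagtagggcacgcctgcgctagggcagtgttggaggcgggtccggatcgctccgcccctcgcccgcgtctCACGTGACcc
Lamp1: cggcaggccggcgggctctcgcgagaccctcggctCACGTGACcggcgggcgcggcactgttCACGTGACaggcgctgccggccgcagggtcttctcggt

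Most genes that let a beta cell sense glucose, or that respond to it, fell. Of 24 members, 14 fell and 6 rose (median log2 fold change −0.23). Slc2a2, the glucose transporter GLUT2, was at 527, 490.1 and 512 with BSA and 101, 107 and 99.99 with PA (−2.28 ± 0.05, adjusted p = 2.98e-12). Txnip, which glucose metabolites induce through ChREBP and which binds thioredoxin, was at 106, 65.6 and 99.2 with BSA and 9.5, 9.01 and 8.54 with PA (−3.30 ± 0.20, adjusted p = 1.06e-05). For Txnip every PA library stayed under 10 FPKM, far below the BSA libraries, which were themselves uneven.

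Other glucose-induced or glucose-using genes fell as well. Arrdc4, a relative of Txnip with the same glucose element, fell 1.83-fold, and Klf10 2.28-fold. Gpd2, the mitochondrial glycerol-3-phosphate dehydrogenase that passes glycolytic electrons to the respiratory chain, was at 32.3, 29.2 and 31.7 with BSA and 15.9, 16.8 and 13.7 with PA (−0.98 ± 0.07). Pc, pyruvate carboxylase, fell 1.55-fold. Pfkfb3, which drives glycolysis, was lower (−1.04 ± 0.29, adjusted p = 0.0228), a call lost without BSA replicate 1 (adjusted p = 0.0669), BSA replicate 3 (0.0566), PA replicate 2 (0.0746) or PA replicate 3 (0.0645). Pdha1, of pyruvate dehydrogenase, rose 1.54-fold. Slc16a1, a lactate and pyruvate carrier that mature beta cells keep low, was at 5.13, 5.92 and 5.75 with BSA and 7.56, 8.26 and 9.19 with PA (0.60 ± 0.11).

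Beta cell transcription factors fell in part. Of 22 tested, 10 fell, 3 rose and 9 did not pass (median log2 fold change −0.10). Mafa, which activates the insulin genes in mature cells, was at 388, 380.1 and 375 with BSA and 188, 245 and 201 with PA (−0.82 ± 0.14, adjusted p = 0.00228). Pdx1 was at 249, 264 and 248 with BSA and 147, 188 and 155 with PA (−0.61 ± 0.11, adjusted p = 0.00203), and Mnx1, a homeobox factor that maintains beta cell fate, at 64.1, 68.3 and 62.7 with BSA and 24.5, 29 and 23.6 with PA (−1.31 ± 0.11, adjusted p = 2.14e-06). For each, replicate 2 was the highest of the PA libraries and still lay below the BSA libraries. Smaller falls were found for Isl1 (1.27-fold), Myt1 (1.37-fold), Nkx2-2 (1.14-fold) and the cofactor Ldb1 (1.16-fold). Nkx6-1 (0.08 ± 0.15), Neurod1 (−0.05 ± 0.06), Pax6 (−0.03 ± 0.04) and Foxa2 (−0.07 ± 0.05) did not pass. St18, a relative of Myt1, and Foxa1 rose 1.25-fold and 1.62-fold.

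**Figure D3:**
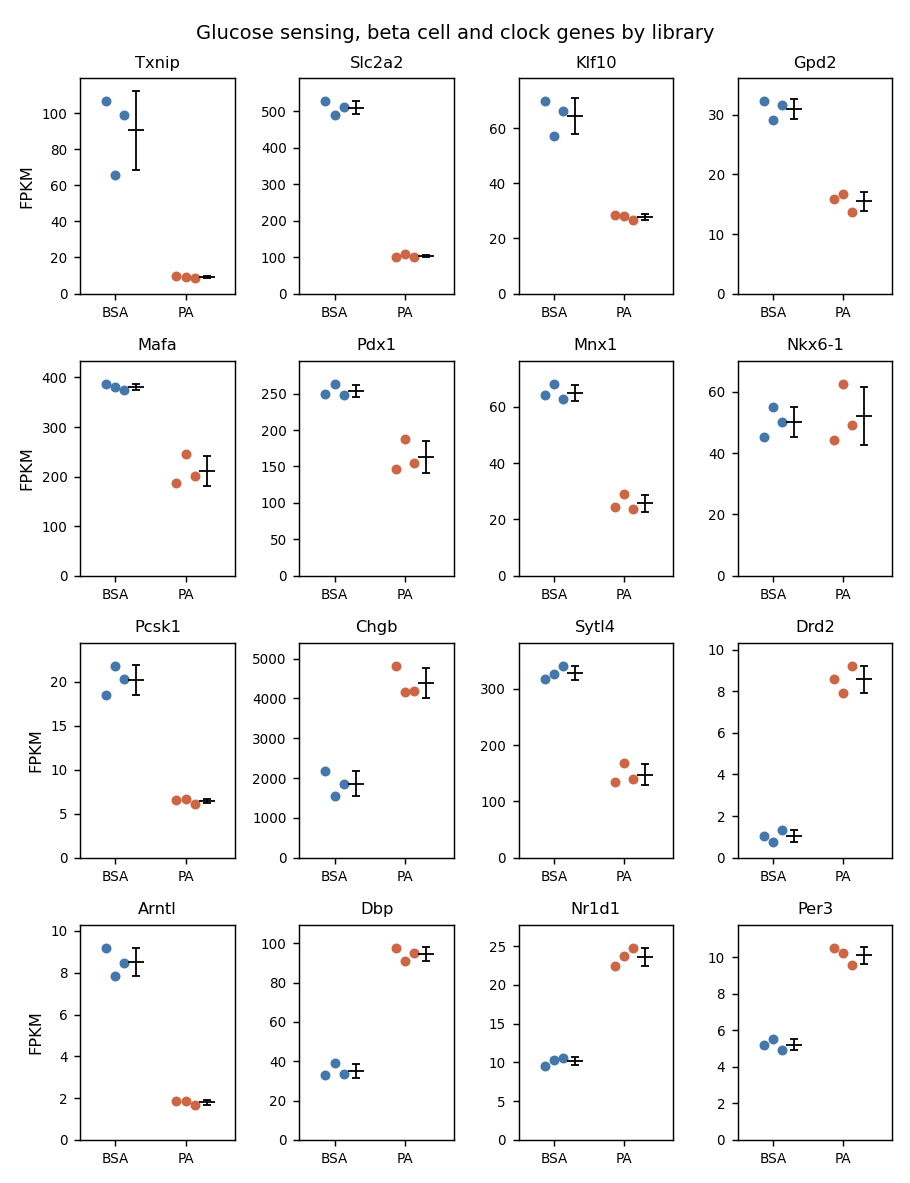
FPKM of 16 genes of glucose sensing, beta cell identity, the granule and the clock in the 3 BSA and 3 PA libraries, 1 point per library, with the mean and SD (n = 3) beside them and axes that start at 0. Nkx6-1 overlaps between groups, and Chgb, Drd2, Dbp, Nr1d1 and Per3 are the genes higher with PA.

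Granule genes moved in opposite directions, with 10 of 27 higher and 13 lower. Pcsk1, the protease that starts the cutting of proinsulin, was at 18.5, 21.8 and 20.3 with BSA and 6.51, 6.69 and 6.16 with PA (−1.62 ± 0.08, adjusted p = 1.59e-09). Pcsk2, which makes the other cut, was at 329, 295 and 305 with BSA and 342, 281 and 305 with PA, and its groups overlapped (0.02 ± 0.09). Cpe, which trims the cut ends, rose 1.5-fold. Among the granins that help build the granule, Chgb was at 2172, 1545 and 1860 with BSA and 4824, 4152 and 4200 with PA (1.27 ± 0.15, adjusted p = 0.000343), above every BSA library in each PA library. Scg3 rose 1.63-fold and Nucb2 1.64-fold, whereas Chga fell 1.13-fold, a call lost without PA replicate 3 (adjusted p = 0.0542). Cartpt, a neuropeptide precursor stored in granules and named here after its values were seen, had the largest rise of the list (6.01-fold). It was a low gene, with a mean under 5 FPKM over the 9 libraries. Its log2 fold change was 2.59 in the main fit and 0.96 with limma on log2(FPKM + 1), which understates the fold of low genes. Iapp (islet amyloid polypeptide) fell 1.32-fold, Slc30a8 1.22-fold, and Sytl4, a granule protein that binds Rab27, fell from 328 to 148 FPKM (−1.12 ± 0.10).

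Of 26 genes of the release machinery, 11 rose and 6 fell (median log2 fold change 0.11). Unc13a, a priming factor, was at 18.2, 16.7 and 18 with BSA and 31.2, 32.4 and 32.7 with PA (0.89 ± 0.05, adjusted p = 3.95e-09), without overlap. The syntaxin Stx3 rose 1.68-fold, the synaptotagmin Syt4 1.68-fold and Vamp2 1.22-fold. Syt13, another synaptotagmin, fell 1.67-fold and Stx1a 1.21-fold. Neither Snap25 (−0.02 ± 0.07) nor the calcium sensor Syt7 (0.03 ± 0.05) passed.

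Channels that shape the electrical response were divided, with 11 of 26 higher and 7 lower. Abcc8 (SUR1, the sulfonylurea receptor) was at 112, 117 and 112 with BSA and 146, 157 and 150.4 with PA (0.44 ± 0.05), and its partner in the K-ATP channel, Kcnj11, had a small rise (0.13 ± 0.04, adjusted p = 0.0254) that was lost without BSA replicate 1 (adjusted p = 0.0616), BSA replicate 3 (0.103) or PA replicate 2 (0.132) and with limma (0.0734 and 0.073). Kcnk3, a leak potassium channel, rose 2.13-fold, and the calcium release channel Itpr3 1.55-fold. Trpm5, a cation channel named here after its values were seen, had the largest fall (8.87-fold). It was a low gene, with a mean under 5 FPKM over the 9 libraries. Its log2 fold change was −3.15 in the main fit and −1.72 with limma on log2(FPKM + 1). Trpm2 fell 1.72-fold and Ryr2, the ryanodine receptor, 1.97-fold. The calcium channel genes Cacna1c (−0.03 ± 0.07) and Cacna1d (0.33 ± 0.15) did not pass.

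Among 29 receptors that tune secretion, 12 rose and 10 fell (median log2 fold change −0.01). The largest change was in Drd2, the dopamine D2 receptor, through which dopamine lowers insulin release. It was at 1.06, 0.746 and 1.35 with BSA and 8.59, 7.92 and 9.23 with PA (3.05 ± 0.18, adjusted p = 3.36e-08), and the lowest PA library was over 5 times the highest BSA library. Chrm3, the muscarinic receptor that promotes release, and Ffar2, a receptor for short-chain fatty acids, rose 2.26-fold and 1.96-fold, as did Sstr3, a somatostatin receptor (1.52-fold). Gpr119, a lipid amide receptor that promotes release, was at 49.9, 54.2 and 50.6 with BSA and 28.2, 31.3 and 27.3 with PA (−0.81 ± 0.07). Adra2a, the inhibitory alpha-2A adrenergic receptor, fell 1.67-fold, Casr, the calcium-sensing receptor, 1.71-fold and Chrm4 4.85-fold. Gipr, the receptor of the incretin GIP, fell slightly (−0.33 ± 0.10, adjusted p = 0.0255). That call was lost without BSA replicate 2 (adjusted p = 0.0612), PA replicate 1 (0.0753) or PA replicate 3 (0.0525). Glp1r, the GLP-1 receptor, did not pass (−0.14 ± 0.06, adjusted p = 0.0749).

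The tricarboxylic acid cycle and pyruvate dehydrogenase changed by small amounts, with 11 of 24 genes higher, 4 lower and all log2 fold changes between −0.36 and 0.65. Idh2 was at 74.5, 84.9 and 75.8 with BSA and 119.7, 123 and 119 with PA (0.65 ± 0.05, adjusted p = 2.17e-07), and Sdha, of succinate dehydrogenase, rose 1.39-fold. Fh, fumarase, fell 1.28-fold, and citrate synthase (Cs) did not pass (0.01 ± 0.04). Of 76 nuclear-encoded subunits of the respiratory chain and ATP synthase, 13 rose and 18 fell, shares below the background in both directions. Their median log2 fold change was −0.05. The count of rises was 8 without BSA replicate 1 and also 8 without BSA replicate 3. Cox6a2, described above, had the largest rise. Next by fold was Uqcr10, a small subunit of complex III named here after its values were seen, at 17.5, 13.5 and 17.6 with BSA and 59.96, 59.4 and 16.5 with PA. One PA library lay at the BSA level, and the groups overlapped. The call (1.51 ± 0.47, adjusted p = 0.0367) was lost when any library other than PA replicate 3 was left out (adjusted p between 0.0865 and 0.108). The same call was lost without a filter (adjusted p = 0.0553) and with only the 6 libraries (0.0955). It was lost too with the replicate number as a block (0.0945) and with limma (0.0728 and 0.0737).

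Genes of the cytosolic ribosome and of the proteasome moved in opposite directions. Of 81 gene entries for cytosolic ribosomal proteins, 62 rose and none fell (median log2 fold change 0.33). Their summed level was 30360 ± 1540 FPKM with BSA and 37960 ± 1210 with PA (mean ± SD, n = 3). Ribosomal protein genes have many near-identical copies, so single values are uncertain. Of 74 mitochondrial ribosomal proteins, 9 rose (5 without BSA replicate 1) and 20 fell. Of 37 proteasome subunits, 30 fell and none rose (median log2 fold change −0.33), and the summed level went from 2787 ± 58.0 to 2195 ± 18.0 FPKM (mean ± SD, n = 3). These 3 lists were drawn up by gene names with earlier results of these data known, and were narrowed after values were seen. Their counts are therefore descriptive.

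Chaperones of the cytosol, as distinct from those of the ER, fell more often than they rose, with 12 of 23 lower and 4 higher. Hsp90aa1, the inducible HSP90, was at 153, 158 and 153 with BSA and 96.9, 89.1 and 84.6 with PA (−0.75 ± 0.05, adjusted p = 2.96e-08). Bag3, a co-chaperone, fell 1.84-fold, Stip1 1.37-fold, Dnaja1 1.3-fold and Hspa2 2.63-fold. Hsf1, the factor that induces these genes, rose 1.23-fold, and Dnajb2 1.29-fold.

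Antioxidant genes were mixed, with 16 of 36 higher and 7 lower. Gpx4, which reduces lipid peroxides, was at 40.9, 42 and 39.6 with BSA and 68.5, 61.1 and 64.6 with PA (0.69 ± 0.06, adjusted p = 2.53e-07). Cat, catalase, which is kept low in beta cells, rose 1.6-fold, Sod1 1.22-fold and Gclc, of glutathione synthesis, 1.35-fold. The list holds NRF2 targets together with antioxidant enzymes, and in it Osgin1 and Nqo1 rose 3.14-fold and 1.81-fold. The peroxiredoxin Prdx1 was at 256, 249.9 and 250.3 with BSA and 164, 149 and 158 with PA (−0.66 ± 0.06), and thioredoxin (Txn1) fell 1.36-fold. Taldo1, of the pentose phosphate pathway, fell 1.33-fold. Nfe2l2, the gene of NRF2, did not pass (−0.02 ± 0.05), nor did Hmox1 (0.22 ± 0.20), and Keap1, which holds NRF2 in check, rose 1.34-fold. The metallothionein Mt1 was low and uneven, at 1.89, 3.7 and 4.996 with BSA and 9.15, 8.07 and 13.1 with PA (1.54 ± 0.31, adjusted p = 0.001), and yet did not overlap.

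Of 14 genes of iron handling, 4 rose and 4 fell. Tfrc, the transferrin receptor, was at 100.3, 76.7 and 97.6 with BSA and 37.1, 33.6 and 35.8 with PA (−1.34 ± 0.09, adjusted p = 1.87e-06). Ftl1, the ferritin light chain, was at 26.2, 35.7 and 27.8 with BSA and 48.4, 52.6 and 75.3 with PA (1.999-fold, adjusted p = 0.00299), and the heavy chain Fth1 did not pass (−0.06 ± 0.07). Ncoa4, which delivers ferritin to lysosomes, and Ireb2, which binds the mRNAs of ferritin and the transferrin receptor, fell 1.27-fold and 1.24-fold. The mitochondrial iron carriers Slc25a28 and Slc25a37 rose 1.67-fold and 2.1-fold.

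In both lists of amino acid genes, more members fell than rose. Of 17 genes of serine, one-carbon and asparagine synthesis, 9 fell and 3 rose (median log2 fold change −0.32). Psat1, of serine synthesis, was at 95.9, 72.4 and 84.1 with BSA and 50.8, 44.8 and 49.5 with PA (−0.77 ± 0.10, adjusted p = 0.00017). Shmt2 and Mthfd2, which move one-carbon units in mitochondria, fell 1.39-fold and 1.43-fold, and Shmt1 1.46-fold. Pycr1, of proline synthesis, rose 2.43-fold, while asparagine synthetase (Asns) did not pass (−0.07 ± 0.05). Of 31 amino acid transporters and tRNA synthetases, 12 fell and 7 rose. Sars1 rose 1.58-fold, Cars fell 1.44-fold, and the transporter Slc7a5 fell 1.23-fold.

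Clock genes moved in opposition, with 11 of 22 higher and 6 lower (median log2 fold change 0.23). Arntl (BMAL1, the activator at the centre of the clock) was at 9.2, 7.86 and 8.48 with BSA and 1.86, 1.88 and 1.64 with PA (−2.22 ± 0.12, adjusted p = 5.61e-09). Dbp, an output gene of the clock, was at 32.8, 39 and 33.2 with BSA and 97.7, 90.9 and 95 with PA (1.46 ± 0.06, adjusted p = 5.59e-10), and Nr1d1 (REV-ERB alpha, which represses Arntl) at 9.55, 10.3 and 10.6 with BSA and 22.5, 23.7 and 24.8 with PA (1.24 ± 0.06, adjusted p = 1.41e-09). The 3 libraries of each group lay close together and apart from the other group for all 3 genes. Per3 rose 1.97-fold, Tef 1.68-fold, Per2 1.54-fold, Nr1d2 1.38-fold and Cry2 1.27-fold. Per1 rose by less (0.22 ± 0.05 on the log2 scale). Clock, the partner of BMAL1, fell with uneven BSA libraries (−0.54 ± 0.16, adjusted p = 0.0215). That call was lost without BSA replicate 3 (adjusted p = 0.0576), PA replicate 1 (0.0618), PA replicate 2 (0.0728) or PA replicate 3 (0.0512). Hlf, a relative of Dbp, fell 1.85-fold. Only the 24 h time was sampled, so a shift of phase and a change of mean level cannot be told apart.

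Signalling genes showed no common direction. Of 29 immediate early genes, 8 rose and 6 fell. The MAP kinase phosphatases were split. Dusp4 was at 9.02, 7.44 and 9.22 with BSA and 39.2, 33 and 35.7 with PA (2.10 ± 0.11, adjusted p = 2.62e-07) and Dusp6 rose 3.13-fold, whereas Dusp1 was at 55.5, 55.1 and 53.2 with BSA and 26.3, 25.4 and 24.9 with PA (−1.07 ± 0.05, adjusted p = 7.66e-10). Each was without overlap. Among transcription factors Maff rose 3.1-fold, Mafk 1.51-fold and Atf3 1.84-fold, Arc fell 1.85-fold, and Jun (−0.13 ± 0.09), Egr1 (0.25 ± 0.22) and Myc (0.16 ± 0.06) did not pass. Gdf15, a stress hormone, was at 32.1, 25.4 and 25.2 with BSA and 66.5, 49.5 and 65.7 with PA (1.16 ± 0.15).

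Of 29 genes of inflammation and NF-kappaB signalling, 7 rose and 5 fell, a share below that of all genes (median log2 fold change 0.001). Il1r1, the interleukin-1 receptor, which is abundant in beta cells, was at 125, 133 and 130.1 with BSA and 49.98, 58.8 and 51.9 with PA (−1.25 ± 0.06, adjusted p = 3.67e-09). Nfkbia, the inhibitor IkappaB alpha, fell 1.56-fold, Socs2 1.23-fold and Stat3 1.13-fold. Irak1, a kinase below the interleukin-1 receptor, and Nfkb1 rose 1.35-fold and 1.25-fold.

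Apoptosis genes also lacked a common direction, with 9 of 30 higher and 7 lower. The protective genes Bcl2l1 and Bcl2 fell. Bcl2l1 was at 42.6, 42 and 39.8 with BSA and 31.1, 31 and 31 with PA (−0.39 ± 0.05, adjusted p = 1.3e-05), without overlap, and Bcl2 fell 1.51-fold. The pore-forming Bax rose 1.15-fold, a call lost without BSA replicate 1 (adjusted p = 0.0725), BSA replicate 2 (0.0555) or PA replicate 3 (0.102) and with limma (0.0509 and 0.0512). Bid, which activates it, rose 1.44-fold. Casp2 and the caspase inhibitor Birc2 fell 1.33-fold and 1.47-fold. Cflar, which blocks death receptor signals, rose 1.77-fold and Aen, a nuclease, 1.33-fold.

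Genes of mitosis fell without exception. All 34 tested members fell, 32 of them by more than 2-fold, and the median log2 fold change was −1.68. Mki67, the proliferation antigen Ki-67, was at 45.1, 38.6 and 42.7 with BSA and 8.61, 8.85 and 8.84 with PA (−2.24 ± 0.06, adjusted p = 1.34e-11). Top2a, the topoisomerase that untangles chromosomes, was at 94.2, 79.5 and 91.1 with BSA and 18.9, 15.5 and 18.2 with PA (−2.31 ± 0.08, adjusted p = 3.95e-09). Foxm1, which switches on genes of late cell cycle, was at 29.3, 28.5 and 28.8 with BSA and 6.6, 6.47 and 6.26 with PA (−2.14 ± 0.05, adjusted p = 8.4e-12). None came near an overlap. Cdk1, the kinase of mitotic entry, and its cyclin Ccnb1 fell 3.26-fold and 2.29-fold, Ccna2 3.96-fold, Kif11, the spindle motor, 4.48-fold, and Nusap1 4.69-fold. Aurkb had the smallest fall of the list (1.51-fold). In RNA from whole cultures, fewer cycling cells and less of these mRNAs per cell cannot be told apart.

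Promoters of these genes are known for CCAAT boxes and for the element TTTGAA near the start. In the 250 bases before the start, on either strand, CCAAT was found in 21 of 28 mitosis genes (75%) and TTTGAA in 13 (46.4%), against 35.9% and 9.67% of all 8437. The stretches below, from Mki67 at chr1:199952683-199952782 on the minus strand and Cdk1 at chr20:19265193-19265292 on the plus strand of GRCr8, have both motifs and their complements in capitals. In Mki67 the last of them overlap.
Mki67: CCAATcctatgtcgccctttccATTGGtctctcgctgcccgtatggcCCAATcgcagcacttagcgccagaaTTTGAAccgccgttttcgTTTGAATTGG
Cdk1: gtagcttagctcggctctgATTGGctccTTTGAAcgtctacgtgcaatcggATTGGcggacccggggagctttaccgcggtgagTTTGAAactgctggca

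Regulators of cell cycle entry fell too, with 16 of 26 lower and 3 higher. E2f8 was at 17.4, 14.2 and 16.7 with BSA and 2.49, 2.48 and 2.55 with PA (−2.66 ± 0.10, adjusted p = 1.44e-10), and E2f7, its relative, fell 4.5-fold, Ccne2 1.91-fold and Cdk2 1.77-fold. Against that direction, Ccnd1 (cyclin D1) was at 0.246, 0.418 and 0.388 with BSA and 2.55, 2.66 and 2.56 with PA (2.91 ± 0.19, adjusted p = 3.49e-08). It was low in all libraries, and the main D-type cyclin of these cells, Ccnd2, fell from 166 to 142 FPKM. The inhibitor Cdkn1a (p21) fell 1.41-fold, and Cdkn1b (p27) rose 1.16-fold.

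Genes of tubulins and actin fell. Of 32 cytoskeleton and matrix genes, 19 fell and 2 rose (median log2 fold change −0.37). Tuba1b was at 528, 478 and 498 with BSA and 273, 256 and 272 with PA (−0.88 ± 0.05, adjusted p = 5.54e-09), and Tubb5 at 489, 444 and 489.7 with BSA and 247, 221 and 239.7 with PA (−0.98 ± 0.05). Tubb4b fell 2.01-fold. Lmnb1, lamin B1, was at 52.1, 54.9 and 54.4 with BSA and 20.3, 21.3 and 22.4 with PA (−1.31 ± 0.06, adjusted p = 5.5e-10), whereas Lmna, lamin A/C, rose 1.29-fold. Actb, often used as a reference gene, was at 627, 659.6 and 636 with BSA and 471, 473 and 467 with PA (−0.42 ± 0.04, adjusted p = 5.67e-07), lower in each PA library. Lama5, a laminin chain, rose 1.64-fold.

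Genes that mature beta cells keep low, or that mark immature ones, did not move as a group, with 7 of 15 higher and 7 lower. Sox9, a factor of ducts and progenitors, was at 2.72, 2.52 and 2.72 with BSA and 4.52, 5.86 and 4.65 with PA (0.94 ± 0.13, adjusted p = 3.06e-05). Oat, ornithine aminotransferase, rose 1.92-fold and Igfbp4 1.5-fold. Gast, gastrin, was at 4.22, 5.3 and 3.71 with BSA and 0.826, 0.415 and 1.51 with PA (−2.24 ± 0.39, adjusted p = 0.000343), and Cxcr4 fell 2.22-fold.

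**Figure D4:**
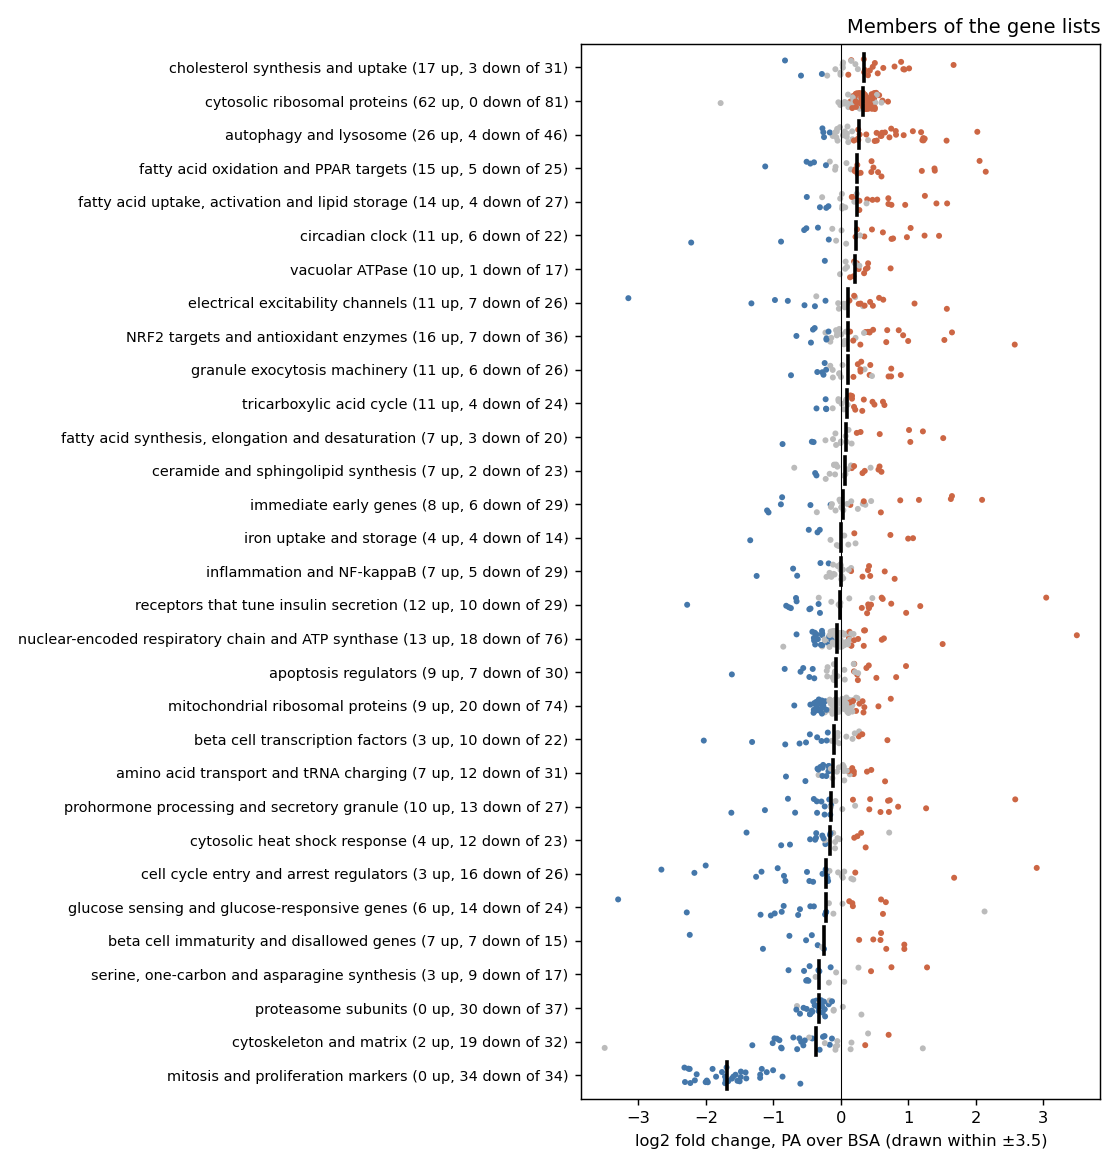
Each point is the log2 fold change of PA over BSA for 1 tested member of a list, coloured orange if called higher, blue if called lower and grey if not called, drawn within ±3.5, and the black bar is the median of the list. Counts called higher and lower stand beside each name. Cholesterol genes and cytosolic ribosomal proteins lie highest by median, and mitosis genes lie lowest.

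The KEGG annotation of the table was read in the same way, over the 274 pathways with 15 or more tested genes. Beside the ER pathway, the largest shares of members called higher, against 26% of all genes, were in other glycan degradation, with 13 of 16 (81.2%), and lysosome, with 63 of 94 (67%). Collecting duct acid secretion, which consists largely of vacuolar ATPase genes, had 10 of 16 (62.5%). Selenocompound metabolism had 9 of 15, heparan sulfate and heparin synthesis 10 of 17, protein export 13 of 23, synaptic vesicle cycle 27 of 48, SNARE interactions 17 of 31 and steroid biosynthesis 8 of 15. The largest shares called lower, against 25.2% of all genes and beside DNA replication, were in mismatch repair (20 of 23, 87%), homologous recombination (31 of 39, 79.5%), Fanconi anemia (34 of 47, 72.3%), proteasome (31 of 44, 70.5%) and cell cycle (74 of 112, 66.1%). Maturity onset diabetes of the young, a pathway of islet transcription factors, had 13 of 21 lower (61.9%) and 1 higher. Oocyte meiosis, base excision repair and systemic lupus erythematosus, whose members in these cells include many histones, completed the 10. Outside these, aminoacyl-tRNA biosynthesis had 12 of 46 higher (26.1%) and 11 lower (23.9%), near the shares of all genes. Genes belong to several pathways, so the shares are not independent of each other.

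**Figure D5:**
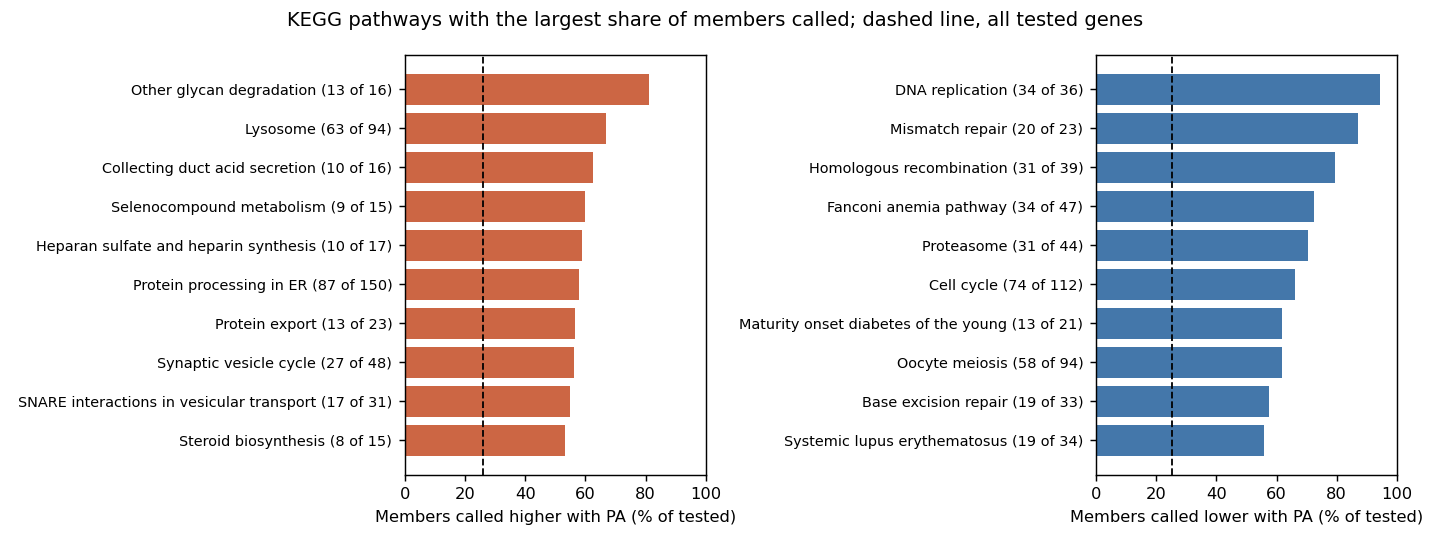
Bars give the percentage of tested members called higher (left) or lower (right) with PA, for the 10 KEGG pathways with the largest share in each direction, with counts beside the names. Dashed lines mark the shares among all tested genes, 26% and 25.2%, and every bar passes its line.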

How the data were processed

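Poly(A) RNA of INS-1E cells was sequenced strand-specifically with paired-end reads by the authors. The deposited table holds, for each library, estimated counts, which were not normalized, and FPKM values, scaled by the authors to gene length and mapped fragments. The submitters' processing notes name cutadapt 1.9, HISAT2 2.0.4, StringTie 1.3.4d, DESeq2 and edgeR. The genome build and the strand setting of the counting are not given in the sources used here, so overlapping genes are uncertain. Genes at 4 counts were 2.44 times as frequent as the mean of those at 3 and 5.

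Genes with a mean of at least 1 FPKM were tested on the deposited estimated counts, which were whole numbers, with edgeR 4.0.16 (TMM, quasi-likelihood F test, 9 libraries, Benjamini-Hochberg adjustment) in R 4.3.3. Alternatives used DESeq2 1.42.0, limma 3.58.1, other scalings, filters and samples. Named genes were the 10 largest rises and falls without overlap between groups, over all genes and over those with at least 50 FPKM, and in each list the 5 called members with the smallest p-values, members needed for both directions and enzymes at the head of a pathway. The 26 pathway lists and 5 lists by gene name, with their members, were chosen with earlier results of these data known, and the name lists were narrowed after values were seen. Promoter sequences are from RefSeq (GRCr8), matched by symbol or Ensembl identifier. Some genes of these lists are counted in them but not reported here by name.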

Additional observations from a re-analysis of the deposited data

How the results depend on the processing

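The number of genes past the threshold stayed within 1.5 times of 6636 under the alternatives run, from 5645 with a mean FPKM of at least 5 to 7004 with the replicate number as a block (3539 higher, 3465 lower). Across genes, same-numbered BSA and PA libraries correlated weakly in their deviations from the group means (r = 0.0455, 0.0202 and −0.0198). A library correlated best with its own number in 9 of 18 cases. These included every case between PA and PA + C3G and no case between BSA and PA + C3G. The numbers were not taken as a pairing, and these values do not settle whether the libraries were paired. Single genes, such as Gcg and Serpina6, were ordered alike by number in every group. The block gave 972 genes past 2-fold. Leaving out 1 library at a time gave 5904 to 6322 genes past the threshold and 942 to 1002 past 2-fold. The count past 2-fold depended on the filter, with 1636 genes (720 higher, 916 lower) without a filter and 552 (245 higher, 307 lower) at a mean FPKM of at least 5. With limma on log2(FPKM + 1), which understates the fold of low genes, 275 were higher by this criterion.

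Of 254 genes called among those chosen by the naming rule, 239 kept direction and call under every alternative that could be fitted for them, 15 lost the call under at least 1, and none reversed. Of 992 counts of list members under alternatives, 8 differed by more than 1.5 times from the value given. At a mean FPKM of at least 5 these were channels lower (4), receptors higher (7) and immaturity genes higher (4). Cytoskeleton genes higher were 4 with only the 6 libraries and 5 with the block, and the others stand beside their lists. Further, 55 of 496 list medians moved by more than 1 SD between libraries, and none changed sign with both values past that SD. Counts divided by 4 gave 6657 genes past the threshold.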

Other observations

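The 13 protein-coding genes of the mitochondrial genome were not part of any list above. With PA, 6 of them fell and none rose (median log2 fold change −0.16, edgeR's quasi-likelihood test). Among all tested genes 25.2% fell and 26% rose. Mt-nd4l, a subunit of complex I, had the largest fall, without overlap between the groups (−0.42 ± 0.07, adjusted p = 0.000683). Mt-nd1, Mt-nd3, Mt-nd5 and Mt-nd6, also of complex I, had log2 fold changes of −0.25, −0.27, −0.23 and −0.29, and Mt-cyb, of complex III, one of −0.16. The other complex I genes, Mt-nd2 (0.08 ± 0.05) and Mt-nd4 (−0.18 ± 0.21), did not pass. Nor did the cytochrome c oxidase genes Mt-co1 (−0.07 ± 0.05), Mt-co2 (−0.13 ± 0.06) and Mt-co3 (0.07 ± 0.06). The ATP synthase genes Mt-atp6 (0.16 ± 0.09) and Mt-atp8 (−0.10 ± 0.11) did not pass either. Most of these mRNAs carry poly(A) tails of their own, and overlapping genes such as Mt-nd4l and Mt-nd4 can share fragments.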
